A study of Mus musculus with 7 samples.

Results

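The SR proteins and the hnRNPs are the 2 large families of RNA-binding proteins that steer pre-mRNA splicing, and their transcripts were followed here in regulatory T cells (Tregs) of skin and of skin-draining lymph nodes (SDLN). Members were the gene symbols of the count table that begin with Srsf followed by a number alone, or with Hnrnp or its older form Hnrp. There were 11 Srsf genes and 20 Hnrnp genes, 31 of the 24084 gene symbols in all, and every one of them passed the filter on low counts. Skin Tregs gave 4 libraries, labelled as telogen skin (the resting phase of the hair cycle), and SDLN Tregs gave 3. All mice were 6 weeks old and, per the labels, carried Foxp3-DTR, an allele that places the diphtheria toxin receptor under the control of Foxp3; the design text adds a green fluorescent protein, and no toxin treatment is named. The number of animals per library and the gates of the sort are not given, so p-values measure the spread between these libraries, which may be technical. With edgeR, no member differed between skin and SDLN Tregs at an adjusted p under 0.05, where 7.24% of all genes tested did. DESeq2 called 5 of the 31 members, where it called 12.6% of all genes. The summed level of the members overlapped between the tissues, and single members varied several-fold between skin libraries.

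SR proteins pair RNA-recognition motifs with a tail rich in arginine and serine, the RS domain; they bind exonic enhancers and recruit the spliceosome, and phosphorylation of the tail by the SRPK and CLK kinases governs where they act. The hnRNPs are a looser group that coats nascent transcripts and often opposes the use of splice sites. In T cells, hnRNP L and hnRNP LL silence the variable exons of Ptprc, which encodes CD45, and so set the CD45 isoform. Many genes of both families also control their own level by splicing in poison exons or keeping introns, which sends the transcript to nonsense-mediated decay. Counts per gene add productive and unproductive transcripts together, so splicing itself was not measured here.

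The feature that sets the SR genes apart in sequence can be read in their coding sequences. Shown here are the 60 bases with the most in-frame arginine-serine or serine-arginine codon pairs among stretches within a single exon of the longest coding sequence. The genes are Srsf7, the most abundant SR gene per length, and Srsf6, the SR gene with the smallest p. The third is Srsf3, the only SR gene whose libraries did not overlap between tissues. Capitals mark the codons of these pairs (arginine CGN, AGA or AGG, and serine TCN, AGC or AGT). Each stretch runs 5′ to 3′ on the coding strand, from GENCODE vM21 transcripts of build mm10.
Srsf7: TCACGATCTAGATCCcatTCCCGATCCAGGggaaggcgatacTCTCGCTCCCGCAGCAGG
Srsf6: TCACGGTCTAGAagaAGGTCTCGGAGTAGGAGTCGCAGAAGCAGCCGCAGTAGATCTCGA
Srsf3: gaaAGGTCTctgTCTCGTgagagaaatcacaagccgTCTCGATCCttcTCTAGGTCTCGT
These stretches lie at chr17:80204327-80204386 (- strand) with 12 pairs, chr2:162934229-162934288 (+ strand) with 15 pairs and chr17:29041232-29041291 (+ strand) with 7 pairs, all in coding exons. Over whole coding sequences the 11 SR genes held 40.5 (Srsf9) to 235 (Srsf2) such pairs per 1000 codons, against 2.74 (Hnrnpm) to 25.5 (Hnrnpa2b1) in the 20 hnRNP genes. The median over 21803 annotated coding genes was 7.30, and 0.619% of them reached the lowest SR value. A transcript annotated as a target of nonsense-mediated decay existed for 9 of 11 SR genes and 10 of 20 hnRNP genes, against 20.8% of coding genes. A transcript with a retained intron existed for 8 and 14 of them, against 41.5%.

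Per length of their protein-coding exons, Hnrnpa2b1, an hnRNP of the A/B group that also sorts RNA for transport, averaged 302 CPM per kb in skin and 395 in SDLN. Srsf7 averaged 303 CPM per kb in skin and 386 in SDLN, and Srsf2 297 CPM per kb in skin and 316 in SDLN. These 3 were the most abundant members in both tissues, and in skin their means differed by less than the spread of each over the libraries. Below them came Hnrnph1, Srsf5 and Hnrnpk in skin, and Hnrnpk, Srsf5 and Hnrnpm in SDLN. The least abundant per length were Hnrnpr, Srsf12, Hnrnpa1, Hnrnph3, Srsf4 and Hnrnpa3, each under 5 CPM per kb in both tissues. The value of Hnrnpr has to be read with its annotated exons, at 21.7 kb the longest of the members. Before division by length Hnrnpr averaged 92.3 CPM in skin and 80.6 CPM in SDLN. For Hnrnpa1, the prototype hnRNP, 46.7% of the 50-base stretches of its coding transcripts recur in transcripts of other annotated genes, 18 of them pseudogenes. The part of this shared sequence in the low value of Hnrnpa1 was not tested. The stretch below, from chr15:103241080-103241169 (+ strand), stands without a difference in the processed pseudogene Gm10052 at chr9:123690088-123690177 (- strand); it is shown because a read that lies within it has no unique place in the genome.
Hnrnpa1 and Gm10052: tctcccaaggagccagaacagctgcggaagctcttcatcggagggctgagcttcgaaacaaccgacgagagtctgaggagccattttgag
Along the main ungapped alignment, 663 of 871 windows of 90 bases were identical, and Gm10052 had 0 counts in all 7 libraries. Alignments to several places made up 61.2 to 64.9% of the table in skin and 64.9 to 70.4% in SDLN and are in no gene's count. Over 20% of 50-base stretches were also shared in Hnrnpf (36.8%), Srsf3 (31.5%), Hnrnpa3 (27.7%), Srsf5 (23.6%), Hnrnpm (21.6%) and Hnrnpk (20.8%), while 17 members had under 2%. Hnrnpm shared its stretches with the overlapping gene March2. The exons of 10 members overlapped genes on the opposite strand. In Srsf4, Hnrnpf, Srsf2 and Hnrnpab over 20% of 50-base stretches recur on the other strand; in Hnrnpl, Hnrnpd, Hnrnpk, Hnrnpr, Hnrnph3 and Srsf1 at most 5.55% do (Hnrnpd), and none in Hnrnpl. The strand setting of the counting is not given, so these members are uncertain in level.

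Total gene counts were 11009609 to 13921238 in skin and 13123241 to 14785751 in SDLN, and genes with a count numbered 9690.0 to 12639 in skin and 13408 to 13845 in SDLN. Skin libraries correlated with each other at 0.624 to 0.699 over log2 CPM of genes, and SDLN libraries at 0.964 to 0.981. Pairs of a skin and an SDLN library correlated at 0.617 to 0.700, a range that spans that of the skin pairs. These values are across genes, which are not replicates. Summed markers of T cells came to 3975 to 7954 CPM in skin and 10132 to 13104 CPM in SDLN, and those of Tregs to 6891 to 11069 CPM in skin and 4659.5 to 5080.0 CPM in SDLN. Foxp3, the defining Treg factor, averaged 169 ± 65.2 CPM in skin (SD, n = 4) and 89.0 ± 17.7 CPM in SDLN (SD, n = 3). Markers of macrophages and dendritic cells summed to 771 to 10274 CPM in skin and 344 to 549 CPM in SDLN. Keratinocyte markers reached 819 CPM and fibroblast markers 2000.5 CPM in skin 3, against at most 20.7 and 8.84 CPM in the other skin libraries and at most 2.65 and 0.882 CPM in SDLN. Of the macrophage and dendritic list, Cd207 had no count in skin, and Itgax, Cd207 and Batf3 none in SDLN; of the keratinocyte list, Krt1 had none in skin, and 5 of 8 markers none in SDLN. Endothelial markers summed to 16.2 to 70.4 CPM in skin and 388 to 548 CPM in SDLN, all of it from Pecam1 in SDLN, where Cdh5, Kdr and Vwf had no count; Kdr and Vwf had none in skin. The library skin 1 carries a tag for lymph node beside a title for skin. The part of these differences between libraries in the results below was not tested, and in such bulk samples fewer cells of a type and less RNA per cell cannot be told apart.

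With edgeR's quasi-likelihood test, 0 of 31 members passed a Benjamini-Hochberg adjusted p of 0.05, where 7.24% of the 11376 genes tested did, 3.28% higher and 3.96% lower in skin. At an unadjusted p under 0.05 there were 8 members (25.8%), 7 with the higher mean in skin and 1 with the lower, beside 18.6% of all genes, 10% higher and 8.52% lower. DESeq2 called 5 members at its adjusted p, where it called 12.6% of all genes. The tissues' libraries did not overlap for 10 members (32.3%), against 26.6% of all genes. In 8 of these every skin library lay above every SDLN library, which holds for 10.1% of all genes, and in 2 below, against 16.5%. The median log2 fold change, skin over SDLN, was 0.48 over the members and 0.05 over all genes, and 20 members (64.5%) had a positive value, against 51.8% of all genes. The SR genes had a median of 0.49 and the hnRNP genes of 0.34, but the tissues did not overlap for 1 of 11 SR genes and for 9 of 20 hnRNP genes, a difference that was not tested. A p that misses the threshold does not show equal levels: the 95% interval lay within a 2-fold difference either way for Srsf5 alone.

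**Figure D1:**
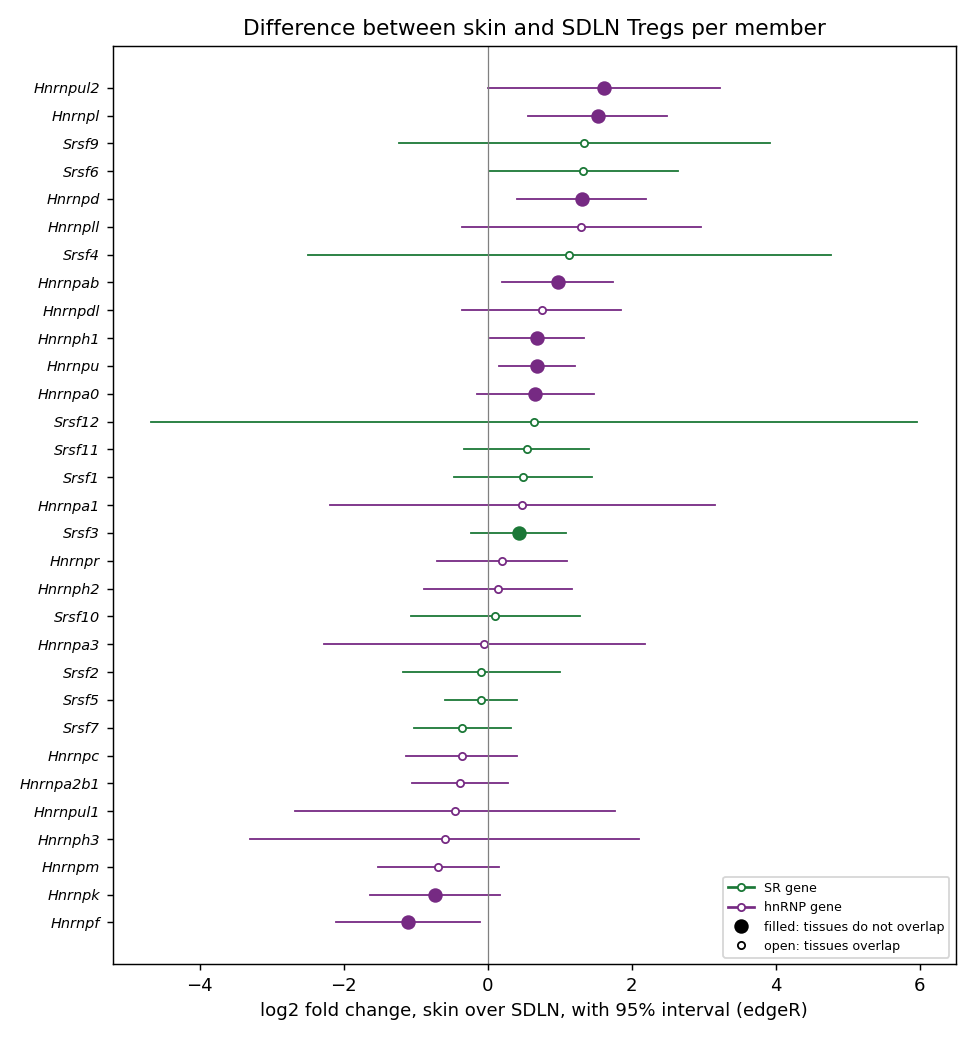
Log2 fold change of each member, skin over SDLN, with its 95% interval from edgeR's quasi-likelihood fit on 4 skin and 3 SDLN libraries; green lines are SR genes, purple lines hnRNP genes, and filled points mark members whose libraries did not overlap between tissues. The 10 filled points lie mostly to the right, and the interval of Srsf12 is the widest.

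Among the SR genes, Srsf7, which also helps export mRNA, had 1016, 941, 509 and 656 CPM in skin 1 to 4, against 838, 983 and 1167 CPM in SDLN 1 to 3 (log2 fold change -0.35, SE 0.29, edgeR adjusted p = 0.627). The tissues overlapped, with skin 3 lowest of all 7 libraries. Srsf6, a regulator of alternative exons, had 76.4, 449, 147 and 187 CPM in skin 1 to 4, against 85.5, 87.9 and 83.2 CPM in SDLN 1 to 3 (log2 fold change 1.33, SE 0.57, edgeR adjusted p = 0.262). The SDLN values lay within 83.2 to 87.9 CPM, skin 2 stood highest and skin 1 lay below every SDLN library. Srsf3, a small SR protein that couples splicing to export and 3′ end choice, had 302, 173, 204 and 176 CPM in skin 1 to 4, against 150.3, 153 and 171 CPM in SDLN 1 to 3 (log2 fold change 0.43, SE 0.29, edgeR adjusted p = 0.516). Every skin library was above every SDLN library, though skin 2 and skin 4 lay close to SDLN 3, and skin 1 stood apart at the top. Srsf5 was the steadiest SR gene across tissues, at 223 ± 13.6 CPM in skin (SD, n = 4) and 237 ± 16.8 CPM in SDLN (SD, n = 3), and its 95% interval reached from 0.664 to 1.32 times the SDLN level.

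The other SR genes overlapped between tissues and none passed. Srsf2, an SR protein that stays in the nucleus and also acts in transcription elongation, had 1127, 443, 509 and 299.9 CPM in skin 1 to 4, against 607, 864 and 426 CPM in SDLN 1 to 3, so that both tissues spread over more than 2-fold. Srsf1, the prototype SR protein, had 77.0, 260.5, 171 and 136 CPM in skin 1 to 4, against 118, 119 and 108 CPM in SDLN 1 to 3, with 3 skin libraries above SDLN and skin 1 below. Srsf9, a close relative of Srsf1, had 1.38, 80.3, 35.3 and 29.2 CPM in skin 1 to 4, against 13.7, 10.98 and 18.5 CPM in SDLN 1 to 3. Srsf9 was 58.2 times higher in skin 2 than in skin 1, whereas its largest SDLN value was 1.69 times its smallest. Srsf11 averaged 223 ± 90.1 CPM in skin (SD, n = 4) and 153 ± 18.8 CPM in SDLN (SD, n = 3). Srsf10, which turns into a repressor of splicing when it loses its phosphates, averaged 111 ± 63.3 CPM in skin (SD, n = 4) and 104 ± 30.0 CPM in SDLN (SD, n = 3). Both Srsf12 and Srsf4 were sparse. Srsf12, a relative of Srsf10 that restrains splicing, had 0, 653, 0 and 14 counts in skin 1 to 4, against 146, 103 and 114 counts in SDLN 1 to 3. Its mean in skin thus rested on skin 2 alone, and without skin 2 its log2 fold change was -4.63 (edgeR adjusted p = 0.252). Srsf4 had 198, 1, 36 and 60 counts in skin 1 to 4, against 32, 57 and 35 counts in SDLN 1 to 3.

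Hnrnpl had the smallest p of the members. Its protein binds CA-rich RNA. The gene lies on chromosome 7, 28808541 to 28822266, and had 72.3, 222, 169 and 176 CPM in skin 1 to 4, against 49.995, 61.3 and 55.3 CPM in SDLN 1 to 3 (log2 fold change 1.52, SE 0.42, edgeR adjusted p = 0.0774). All skin libraries were above all SDLN libraries, with skin 1 close to SDLN and skin 2, 3 and 4 well above. Hnrnpl passed without skin 1 (log2 fold change 1.77, edgeR adjusted p = 0.0174, and 0.00852 to 0.358 over all alternatives); in that comparison 10.8% of all genes passed. Hnrnpll, its paralog that is induced on T cell activation and excludes Ptprc exons, had 14.7, 53.1, 140.5 and 79.0 CPM in skin 1 to 4, against 26.3, 28.7 and 32.6 CPM in SDLN 1 to 3 (log2 fold change 1.30, SE 0.72, edgeR adjusted p = 0.417). Skin 1 was the lowest of all libraries and skin 2, 3 and 4 lay above SDLN, with skin 3, which also carried the keratinocyte and fibroblast markers, the highest. The ratio of Hnrnpll to Hnrnpl counts was 0.204, 0.239, 0.830 and 0.449 in skin 1 to 4, against 0.526, 0.467 and 0.589 in SDLN 1 to 3. The ranges of this ratio overlapped.

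In the D group, Hnrnpd, which encodes AUF1, a protein that binds AU-rich elements and promotes mRNA decay, lies on chromosome 5, 99955935 to 99978938. Hnrnpd had 139, 68.5, 83.7 and 116 CPM in skin 1 to 4, against 38.6, 41.8 and 43.4 CPM in SDLN 1 to 3 (log2 fold change 1.30, SE 0.39, edgeR adjusted p = 0.102). The lowest skin library was above the highest SDLN library by over 1.5-fold. Hnrnpd passed without skin 2 (log2 fold change 1.44, edgeR adjusted p = 0.0456, and 0.00940 to 0.446 over all alternatives), where 8.58% of all genes passed. Its neighbour and paralog Hnrnpdl, on the same strand of chromosome 5 from 100033577 to 100039664, had 74.5, 278, 97.7 and 176 CPM in skin 1 to 4, against 82.1, 105 and 92.7 CPM in SDLN 1 to 3. There the tissues overlapped, and skin 1, the highest skin library for Hnrnpd, was the lowest for Hnrnpdl. In the U group, Hnrnpu, a nuclear scaffold protein that binds RNA and chromatin, had 299, 410.3, 365 and 403 CPM in skin 1 to 4, against 221, 217 and 253 CPM in SDLN 1 to 3 (log2 fold change 0.68, SE 0.23, edgeR adjusted p = 0.139). Its libraries did not overlap and its skin values stayed within 1.37-fold of each other. Hnrnpul2, a relative with a role in DNA break repair, had 28.0, 146, 84.5 and 29.5 CPM in skin 1 to 4, against 24.3, 21.7 and 24.3 CPM in SDLN 1 to 3 (log2 fold change 1.62, SE 0.70, edgeR adjusted p = 0.267). Its libraries did not overlap either, but skin 1 and skin 4 lay just above SDLN and skin 2 far above. Hnrnpul1 had 15, 297, 315 and 318 counts in skin 1 to 4, against 424, 410 and 273 in SDLN 1 to 3, so that skin 1 alone was low.

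In the A/B group, Hnrnpab had 79.1, 131, 108 and 106 CPM in skin 1 to 4, against 53.9, 51.2 and 57.2 CPM in SDLN 1 to 3 (log2 fold change 0.97, SE 0.33, edgeR adjusted p = 0.153). Hnrnpab did not overlap between tissues, and skin 1 was its lowest skin library. Hnrnpa0, whose protein binds AU-rich mRNAs under stress kinase signalling, averaged 78.0 ± 6.00 CPM in skin (SD, n = 4) and 49.3 ± 6.83 CPM in SDLN (SD, n = 3), with no overlap (log2 fold change 0.66, SE 0.35, edgeR adjusted p = 0.395). Hnrnpa2b1 had 891, 438, 688 and 927 CPM in skin 1 to 4, against 959, 875 and 1050.1 CPM in SDLN 1 to 3 (log2 fold change -0.39, SE 0.29, edgeR adjusted p = 0.582). The tissues overlapped there, with skin 2 and skin 3 below SDLN. Hnrnpa1 averaged 6.71 ± 4.41 CPM in skin (SD, n = 4) and 4.81 ± 1.14 CPM in SDLN (SD, n = 3), and Hnrnpa3 10.1 ± 4.75 CPM in skin (SD, n = 4) and 10.4 ± 0.580 CPM in SDLN (SD, n = 3); both overlapped between tissues and both carry the shared sequence described above.

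The F/H proteins bind runs of guanine, and the genes of this group whose tissues did not overlap lay on opposite sides of SDLN. Hnrnpf, on chromosome 6 from 117900324 to 117925622, had 26.7, 25.9, 31.6 and 41.7 CPM in skin 1 to 4, against 57.5, 72.4 and 73.8 CPM in SDLN 1 to 3 (log2 fold change -1.11, SE 0.43, edgeR adjusted p = 0.215). Every skin library was below every SDLN library. Hnrnph1 had 300.4, 286, 519 and 401 CPM in skin 1 to 4, against 236, 260.0 and 208 CPM in SDLN 1 to 3 (log2 fold change 0.68, SE 0.28, edgeR adjusted p = 0.245). Every skin library was above every SDLN library, with skin 3 the highest. The X-linked paralog Hnrnph2 averaged 75.1 ± 34.5 CPM in skin (SD, n = 4) and 68.0 ± 3.66 CPM in SDLN (SD, n = 3), and Hnrnph3, at 11 to 136 counts per library, averaged 4.56 ± 3.23 CPM in skin (SD, n = 4) and 6.92 ± 2.62 CPM in SDLN (SD, n = 3); both overlapped between tissues.

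Hnrnpk, whose protein binds C-rich RNA and DNA, had 764, 210.1, 494 and 416 CPM in skin 1 to 4, against 791, 772 and 784 CPM in SDLN 1 to 3 (log2 fold change -0.73, SE 0.39, edgeR adjusted p = 0.394). The SDLN libraries agreed closely, and every skin library lay below them, skin 1 narrowly and skin 2 by the widest margin. Hnrnpm, a regulator of exon skipping that binds GU-rich RNA, had 268, 250.3, 563 and 206 CPM in skin 1 to 4, against 531, 532 and 493 CPM in SDLN 1 to 3 (log2 fold change -0.69, SE 0.36, edgeR adjusted p = 0.389). Skin 1, 2 and 4 lay well below SDLN and skin 3 above it. Without skin 3 Hnrnpm passed (log2 fold change -1.10, edgeR adjusted p = 0.0275, and 0.0275 to 0.701 over all alternatives), where 11.3% of all genes passed. Hnrnpc, which binds uridine tracts and guards against use of cryptic exons, had 319.7, 129, 301 and 289.8 CPM in skin 1 to 4, against 324, 305 and 374 CPM in SDLN 1 to 3 (log2 fold change -0.36, SE 0.34, edgeR adjusted p = 0.676). Its skin values matched the SDLN range or lay just below it except in skin 2. Hnrnpr had 49.4, 116, 101 and 102 CPM in skin 1 to 4, against 71.7, 71.1 and 99.1 CPM in SDLN 1 to 3 (log2 fold change 0.20, SE 0.39, edgeR adjusted p = 0.880), and the tissues overlapped.

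**Figure D2:**
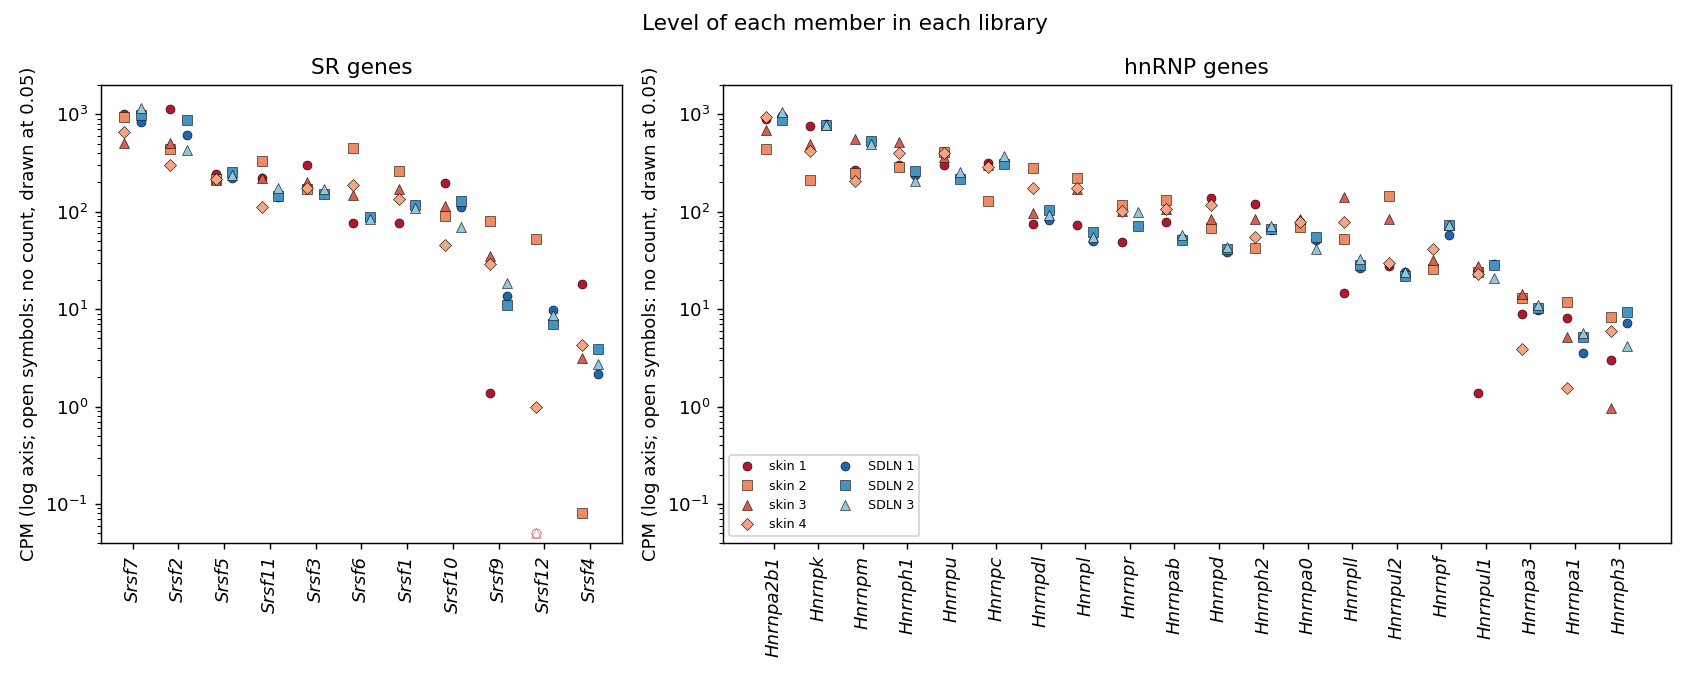
CPM of every member in each of the 7 libraries on a log axis, SR genes in the left panel and hnRNP genes in the right, skin in red to the left of SDLN in blue for each gene; open symbols are libraries with no count. The SDLN symbols of a gene span at most 2.25-fold (Hnrnph3), and the skin symbols of Srsf9, Srsf12, Srsf4 and Hnrnpul1 span over 10-fold.

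The summed levels of the members overlapped between the tissues. Of all gene counts, the members took 0.554 to 0.628% in skin and 0.591 to 0.650% in SDLN. Summed SR transcripts were 2578 ± 688 CPM in skin (SD, n = 4) and 2507 ± 231 CPM in SDLN (SD, n = 3). Summed hnRNP transcripts were 3519.9 ± 429 CPM in skin (SD, n = 4) and 3672 ± 109 CPM in SDLN (SD, n = 3). The makeup of the SR pool was less even: Srsf2 and Srsf7 together made up 65.3, 45.5, 47.9 and 51.3% of SR counts in skin 1 to 4, against 62.9, 67.1 and 64.5% in SDLN 1 to 3. Skin 1 lay in the SDLN range and skin 2, 3 and 4 below it.

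The coefficient of variation between libraries was larger in skin than in SDLN for 29 of 31 members, the exceptions being Srsf5 and Hnrnpa0; the same held for 92.7% of all genes. Its median over the members was 0.471 in skin and 0.109 in SDLN, against 0.750 and 0.187 over all genes. Members and all genes were not matched for level, on which this measure depends. Among the skin libraries, skin 2 was the highest for 13 members and the lowest for 10, and skin 1 the highest for 10 and the lowest for 12. Skin 3 was the highest for 6 and the lowest for 3, and skin 4 for 2 and 6. Over all genes tested, the highest skin library was skin 1 for 3131, skin 2 for 2866, skin 3 for 2881 and skin 4 for 2498. In these counts, genes without a count in any skin library fall to skin 1. Skin 2 combined the highest Srsf6, Srsf9, Srsf12, Srsf1, Hnrnpdl, Hnrnpul2 and Hnrnpl with the lowest Hnrnpk, Hnrnpa2b1 and Hnrnpc, and skin 1 the highest Srsf2, Srsf3, Srsf4, Srsf10 and Hnrnpd with the lowest Srsf9, Hnrnpul1 and Hnrnpll.

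**Figure D3:**
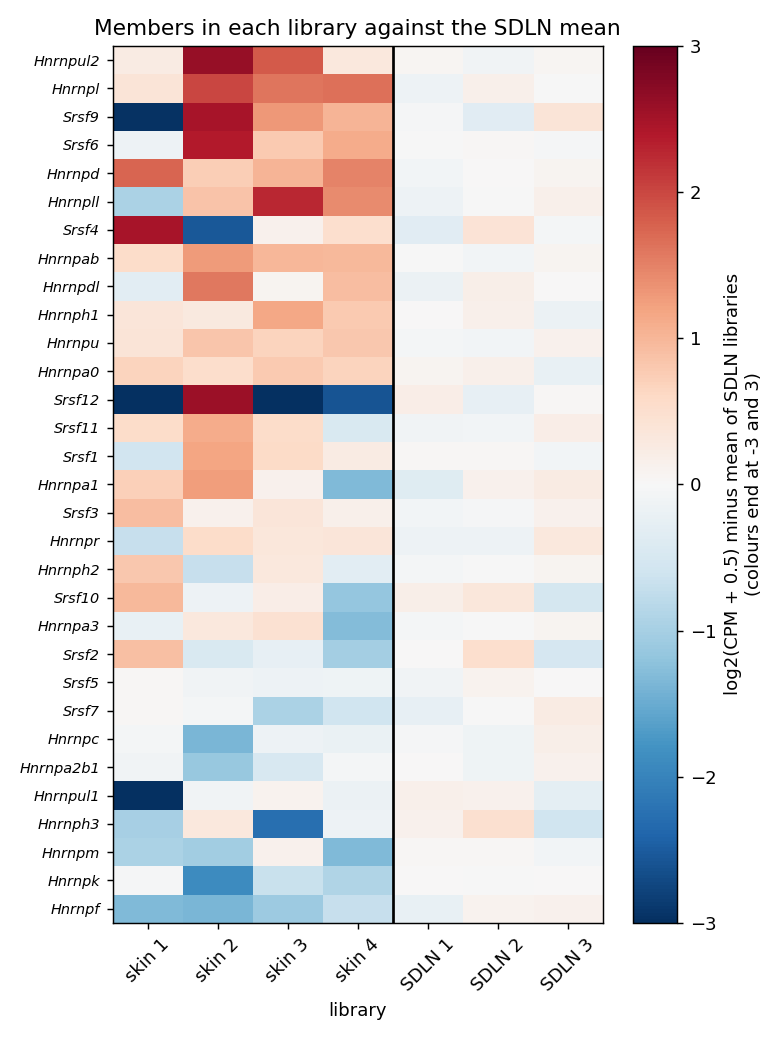
Each member (rows, ordered by log2 fold change) in each library (columns), coloured by log2(CPM + 0.5) minus the mean of the SDLN libraries, red above and blue below. The 3 SDLN columns are mostly pale, the skin columns differ from each other, and Hnrnpa0 and Hnrnpu near the middle are among the rows with one colour in all 4 skin libraries.

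Which members passed depended on the method. DESeq2 called Hnrnpl, Hnrnpd, Hnrnpab, Hnrnpf and Hnrnpu, 5 of 31, where it called 12.6% of all genes. Limma-voom with sample weights called Hnrnpl and Hnrnpd, where it called 15.7% of all genes, and with a variance weight per tissue it called Hnrnpl, where it called 14%. In the 15 alternatives in which 0 members passed, 0.364 to 8.22% of all genes did. No SR gene passed under any of the 21 alternatives, for which the smallest adjusted p of an SR gene was 0.0705, for Srsf6.

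**Figure D4:**
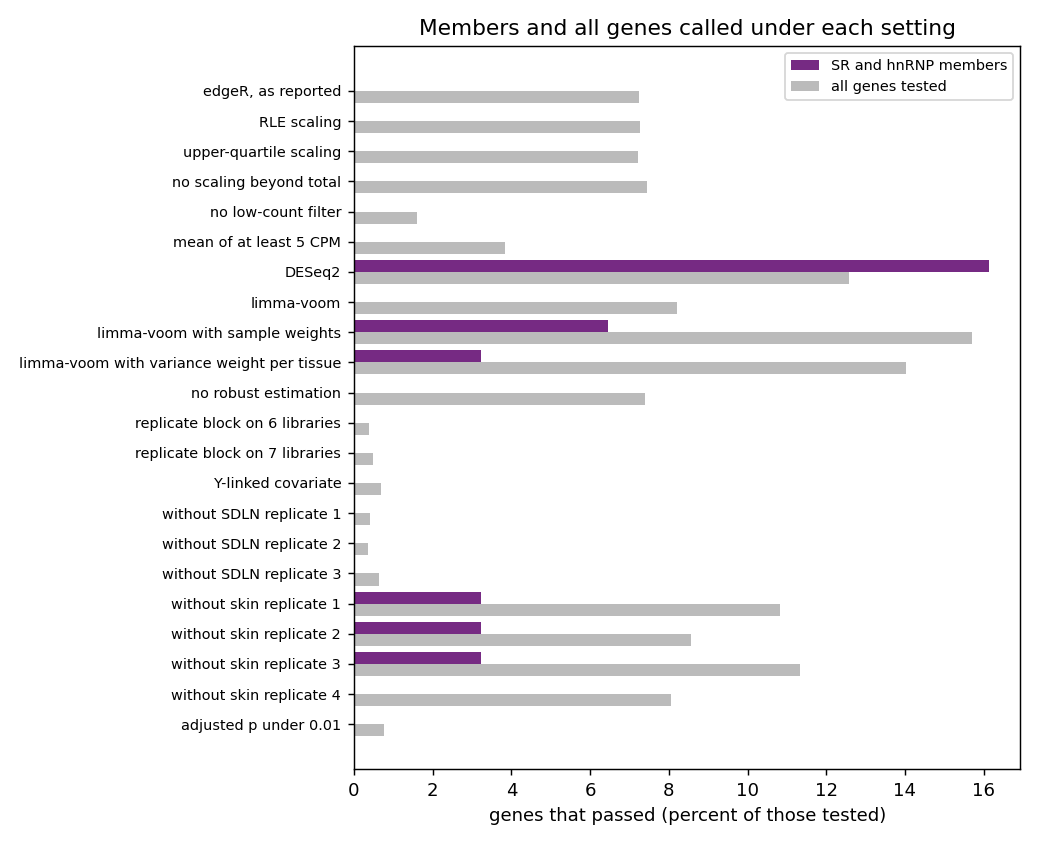
Percent of the SR and hnRNP members (purple) and of all genes tested (grey) that passed under the reported setting, at the top, and under each alternative. Members passed in 6 alternatives, and their share was above that of all genes with DESeq2 alone.

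The wider splicing machinery was read from 6 lists that leave out the members. Over all genes tested, 18.6% had an unadjusted p under 0.05, 51.8% had a log2 fold change above 0 and the median was 0.05. Of 15 tested genes for SR kinases, phosphatases and import, 0 passed and 1, lower in skin, had an unadjusted p under 0.05. A log2 fold change above 0 was found for 11 of the list, and the median was 0.30. Its most abundant gene Clk1, a kinase of the SR proteins, averaged 1204 ± 281 CPM in skin (SD, n = 4) and 835 ± 100.2 CPM in SDLN (SD, n = 3), with an edgeR adjusted p = 0.320. Of 25 SR-related genes, 7 had an unadjusted p under 0.05, all higher in skin, and 17 had a log2 fold change above 0. The median was 0.37, and after adjustment 1 rose and 0 fell. The gene was Srrm2, a large RS-rich protein of nuclear speckles, at 704 ± 195 CPM in skin (SD, n = 4) and 248 ± 57.7 CPM in SDLN (SD, n = 3; log2 fold change 1.51, edgeR adjusted p = 0.0380). Of 40 tested of 50 other splicing regulators, 12 had an unadjusted p under 0.05, 6 higher and 6 lower in skin. A log2 fold change above 0 was found for 21 of them, with a median of 0.30, and after adjustment 2 rose and 0 fell. Sfpq, a paraspeckle protein, had 310.1, 286, 320.4 and 332 CPM in skin 1 to 4, against 132, 177 and 155 CPM in SDLN 1 to 3 (log2 fold change 1.01, edgeR adjusted p = 0.0389). The other was the helicase gene Ddx17, at 314 ± 58.1 CPM in skin (SD, n = 4) and 155 ± 9.23 CPM in SDLN (SD, n = 3; log2 fold change 1.02, edgeR adjusted p = 0.0453). Of 65 core spliceosome genes, 0 passed, with 6 at an unadjusted p under 0.05, 2 higher and 4 lower in skin. In this list 21 had a log2 fold change above 0, with a median of -0.35. Its most abundant gene Sf3b1, of the U2 particle, averaged 1511 ± 313 CPM in skin (SD, n = 4) and 1469 ± 212 CPM in SDLN (SD, n = 3). Of 15 genes of the exon junction complex and nonsense-mediated decay, 0 passed and 0 had an unadjusted p under 0.05. A log2 fold change above 0 was found for 11 of these genes, with a median of 0.61. The most abundant of them, the decay kinase gene Smg1, averaged 259 ± 144 CPM in skin (SD, n = 4) and 163 ± 17.4 CPM in SDLN (SD, n = 3). Of 16 mRNA export genes, 0 rose and 1 fell, with a median of -0.15: the helicase Ddx39 fell to 161 ± 34.1 CPM in skin (SD, n = 4), against 369 ± 29.2 CPM in SDLN (SD, n = 3; log2 fold change -1.20, edgeR adjusted p = 0.0380). In the export list 3 genes had an unadjusted p under 0.05, all lower in skin, and 4 had a log2 fold change above 0. None of the 6 lists passed at a share above the 7.24% of all genes. With any 1 SDLN library left out, 0 of the listed genes that were tested passed, and 0.364 to 0.641% of all genes tested did.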

How the data were processed

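The deposited table holds raw read counts per gene symbol for 7 libraries, made by the authors from mm10 alignments; the submitters' processing notes list HTSeq 0.6.1, SAMtools 0.1.19.0, Bowtie2 2.1.0.0, TopHat2 2.0.12 and CASAVA 1.8.2. Per the labels, cDNA was made with a SMARTer Ultra Low Input kit. The annotation, filters and strand setting used are not given in the sources. Of the table's rows, 24084 are genes and 5 are summary lines, left out of library sizes. Of all counts, summary lines included, 61.2 to 70.4% were alignments to several places and 10.03 to 17.1% lay outside annotated genes. The line for ambiguous assignment between genes held 0.365 to 0.467%.

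Genes were kept by filterByExpr of edgeR 4.0.16 in R 4.3.3 (minimum count 10; 11376 kept), scaled by TMM and compared by the quasi-likelihood test with robust fitting, two-sided, with Benjamini-Hochberg adjustment over all of them. CPM use TMM-scaled library sizes; a count of 3 stands for 0.203 to 0.272 CPM before scaling. SEs are the log2 fold change over the root of F, and intervals are at 95%. DESeq2 1.42.0 and limma-voom (limma 3.58.1) were alternatives, beside other scalings and filters, a replicate block, a term for the library with Y-linked reads (SDLN 3) and leaving out each library. The Y-linked term cannot tell Y-linked reads apart from any other trait of SDLN 3. Lengths, overlaps, coding sequences and shared 50-base stretches come from GENCODE vM21 (mm10), in which all 31 members matched by symbol. The members and lists were chosen with earlier results of these data known. Full values were given for the 10 members with the smallest adjusted p, the most abundant member of each subfamily per length, and Hnrnpll; of each other list, up to 3 called genes or the most abundant; others named with values were chosen after these were seen. Skin 1 was placed by its title.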

Additional observations from a re-analysis of the deposited data

Results flagged for a closer look

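Among the 4 skin libraries, some values stood apart from the rest by more than a gap test for a single sample allows at 95%; chance gives such a gap in about 1 of 20 groups, and 2 of 31 members showed one. Hnrnpc had 129 CPM in skin 2, below 289.8 to 319.7 CPM in the other skin libraries. Srsf12 had 52.8 CPM in skin 2, against at most 0.998 CPM in the others. Hnrnpm in skin 3 came close to the limit, with a gap of 0.825 of the range. The helicase gene Ddx17 had 400.0 CPM in skin 2. Skin 3 had the lowest sum of Treg markers, 6891 CPM, and the highest of keratinocyte markers, 819 CPM, and of fibroblast markers, 2000.5 CPM. The part of these libraries in the members' values was not tested.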

How the results depend on the processing

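The mean of at least 5 CPM dropped Srsf4. Of 619 member values under the alternatives, 578 kept their direction and stayed short of the threshold. Another 11 passed the threshold and 30 changed sign. The cause was not tested. All genes called, 824 as reported, numbered 258 without the low-count filter, 384 at a mean of at least 5 CPM, 1430 with DESeq2, 1787 and 1595 with limma-voom weighted by sample and by tissue, 78 with the Y-linked covariate, 88 at an adjusted p under 0.01 and 43 to 1270 without 1 library (lowest without SDLN 2, highest without skin 3). Members called, 0 as reported, numbered 5 with DESeq2, 2 and 1 with the weighted limma-voom fits and 0 to 1 without 1 library. Genes of the other splicing lists called, 4 as reported, numbered 0 without the filter, 2 at 5 CPM, 16 with DESeq2, 7 with limma-voom, 12 and 7 with its weights, 0 with the Y-linked covariate, 0 at 0.01 and 0 to 11 without 1 library. The replicate block moved all calls to 42 on 6 libraries and 56 on 7. It moved calls in the other splicing lists to 0 and 0, while members stayed at 0. Deviations of same-numbered libraries from their group means correlated at r = 0.0672, -0.00176 and -0.0401 over genes. Genes are not replicates, so these values do not show whether same-numbered libraries share animals, which the labels do not give.

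Log2 fold changes that changed sign under the block, on 6 and 7 libraries, were Hnrnpa3 (0.18 and 0.19), Srsf2 (0.0531 and 0.0686), Srsf4 (-0.18 and -0.14) and Srsf12 (-6.45 and -6.45). With limma-voom, unweighted or weighted by tissue, they were Srsf4 (-0.29 and -0.29), Srsf10 (-0.10 and -0.0849), Srsf12 (-3.95 and -3.93) and, unweighted, Hnrnph2 (-0.00246); with sample weights they were Hnrnpa1 (-0.0910), Srsf10 (-0.46) and Srsf12 (-4.39). Srsf10 had -0.0142 with upper-quartile scaling and -0.11 with the Y-linked covariate. Without 1 library the ranges that crossed 0 were Hnrnpa3 -0.27 to 0.20, Hnrnph2 -0.17 to 0.32, Srsf2 -0.60 to 0.19, Srsf4 -0.22 to 1.53, Srsf10 -0.31 to 0.35 and Srsf12 -4.63 to 1.07. The median log2 fold change of all genes was -0.62 with limma-voom, where that of the members was 0.14. Low counts limit Srsf4, Srsf9, Srsf12, Hnrnpa1, Hnrnph3 and Hnrnpul1, each under 25 counts in at least 1 skin library, and their cause was not tested. Intervals cover the spread between these libraries alone, and reads copied by PCR do not count separate molecules.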
